A study of Danio rerio with 4 samples.

Results

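Splicing factor and hnRNP genes were taken as all genes whose zebrafish symbol, ignoring case, starts with hnrnp, srsf, sf3a, sf3b, snrp or prpf, and 73 of the 31952 genes in the table met this rule. They comprised 24 heterogeneous nuclear ribonucleoprotein (hnRNP) genes, 17 SR protein genes, 12 genes of Sm and other small nuclear ribonucleoprotein (snRNP) proteins, 9 genes of the SF3a and SF3b complexes and 11 PRPF genes. Several symbols stand for more than 1 zebrafish gene, and such genes are told apart below by their Ensembl identifier. Nuclear RNA was sequenced from heads of zebrafish larvae at 5 days post-fertilisation (dpf), as 2 NRas+ and 2 control libraries. Larvae of both groups came from crosses of the same 2 parent lines. One parent line, with the allele ox128, carries mpo:BirA-Citrine together with bactin:Avi-Cerulean-Rangap. The other, with the allele ox130, carries the driver kita:LexPR-Cerulean and the effector LexOP:mCherry-NRas beside the lens marker PcrysB:ECFP. Controls thus have a parent line with the oncogene and its driver too. NRas+ larvae were kept in 1 µM mifepristone from 24 h post-fertilisation (hpf), whereas control larvae received none, and the comparison asks how nuclei labelled as neutrophil respond when the oncogene is switched on in melanocytes.

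In this cross the biotin ligase is driven by the mpo (mpx) promoter of neutrophils, so that only their nuclei should be biotinylated and held on streptavidin beads. The synthetic steroid mifepristone activates the LexPR transactivator, which the kita promoter directs to melanocytes, and LexPR switches on mCherry-NRas. No library of drug-treated larvae without the oncogene was analysed here, so that an effect of the drug and an effect of NRas cannot be told apart. According to the study's text, embryos for profiling were picked by mCherry-NRas in their melanocytes, and how untreated controls were picked is not said. The study did treat larvae of the biotagging line alone with mifepristone and reported little or no change by qPCR. The genes it assayed there included no splicing factor gene. For the line with the kita driver the labels give the allele ox130, which the study's text uses for another driver, the kita one being ox129 there. Each library came from pooled larvae, and the study's text speaks of more replicates than the 2 per group labelled and used here. The p-values therefore measure only the spread between these libraries, part of which may be technical.

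Introns are removed from pre-mRNA by the spliceosome, which is built on each intron from the U1, U2, U4, U5 and U6 snRNPs. Sm proteins form a ring around the small nuclear RNA of most of these particles, SF3a and SF3b belong to the U2 snRNP that recognises the branch point, and many PRPF proteins work in the U4/U6.U5 tri-snRNP and in the activation of the spliceosome. Around this core, SR proteins mostly bind exonic enhancers and favour the use of nearby splice sites, whereas hnRNP proteins coat nascent RNA and often oppose them. Virtually all nucleated cells express these genes, and their levels differ between tissues.

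Counts on genes totalled from 30619195 to 42365244 per library. The label of the tissue was checked against marker lists. The neutrophil markers took 0.00792% and 0.00988% of all counts in NRas+ 1 and NRas+ 2, and 0.00565% and 0.0116% in control 1 and control 2. Between 1 and 6 of the 23 neutrophil genes had no count in a library. The lysozyme gene lyz, from the same list, had 398 and 480 raw counts in NRas+ libraries and 339 and 164 in controls. These counts are not scaled for the library totals, so they do not compare the groups. Skeletal muscle markers took 42.8% and 43.2% of all counts in NRas+ libraries and 30.3% and 21.5% in controls, none of them being at 0 in any library. Fibroblast and cartilage markers took 0.937% and 0.668% in NRas+ libraries and 1.26% and 2.81% in controls. Epidermis markers took 0.745% and 0.377% in NRas+ libraries and 0.510% and 0.417% in controls. Macrophage markers took 0.0386% and 0.0290% in NRas+ libraries and 0.0273% and 0.0264% in controls, in each library more than the neutrophil markers. In RNA from many nuclei at once, fewer nuclei of a cell type and less RNA per nucleus cannot be told apart.

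All 73 genes had enough counts for the test, and none passed it as higher or lower in NRas+. By the quasi-likelihood test of edgeR with Benjamini-Hochberg adjustment at 0.05 over 20099 genes, 0 of the 73 passed in either direction, where 0.129% of all genes tested passed as higher and 0.0398% as lower in NRas+. DESeq2 also called 0 of them. At an unadjusted p under 0.05, edgeR had 0 of the 73 higher and 4 lower in NRas+, against 5.17% and 6.13% of all genes, and DESeq2 had 1 higher and 1 lower. The 4 genes were HNRNPA1L2, SNRPD3 (ENSDARG00000076283), prpf38b and HNRNPM, and the smallest adjusted p of any of the 73 was 0.306 by edgeR. Both NRas+ libraries lay above both controls for 7 of the 73 genes and below them for 13, while 20.5% and 21.8% of all genes did so. Without control 2 the median log2 fold change was -0.09 for the 73 genes and 0.15 for all genes tested. These medians were 0.02 and -0.18 without NRas+ 2, -0.22 and -0.03 without NRas+ 1, and 0.00 and -0.02 without control 1.

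The 73 genes were spread closely around no difference. Their log2 fold changes of NRas+ over control ran from -1.14 to 1.74 with a median of -0.09, the middle of the list lying between -0.43 and 0.18, whereas the median of all genes tested was -0.04 and their middle lay between -0.65 and 0.54. A log2 fold change of 1 or more in size was found for 3 of the 73 genes, or 4.11%, against 27.9% of all genes tested. The sign of the median hung on single libraries, being 0.02 without NRas+ 2 and 0.00 without control 1. The highest library exceeded the lowest by a median of 1.73-fold over the 73 genes and of 3.10-fold over all genes tested. For 17 of the 73, or 23.3%, the 95% interval of the log2 fold change lay wholly between -1 and 1, so that a difference of 2-fold in either direction was outside the interval, against 4.18% of all genes tested. For the other 56 genes a 2-fold difference lay within the interval in at least 1 direction and was not resolved with 2 libraries per group. The median standard error (SE) was 0.43 for the 73 genes and 0.70 for all genes tested, whose estimates were thus less precise. In other splicing lists given below, intervals lay within 2-fold for 26.3% of exon junction complex and SR-related genes, 23.4% of splicing regulators and 23.1% of Lsm genes. The share was 8.70% for further spliceosome genes, 7.69% for SR protein kinases and 0% for snRNP assembly and the minor spliceosome.

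**Figure D1:**
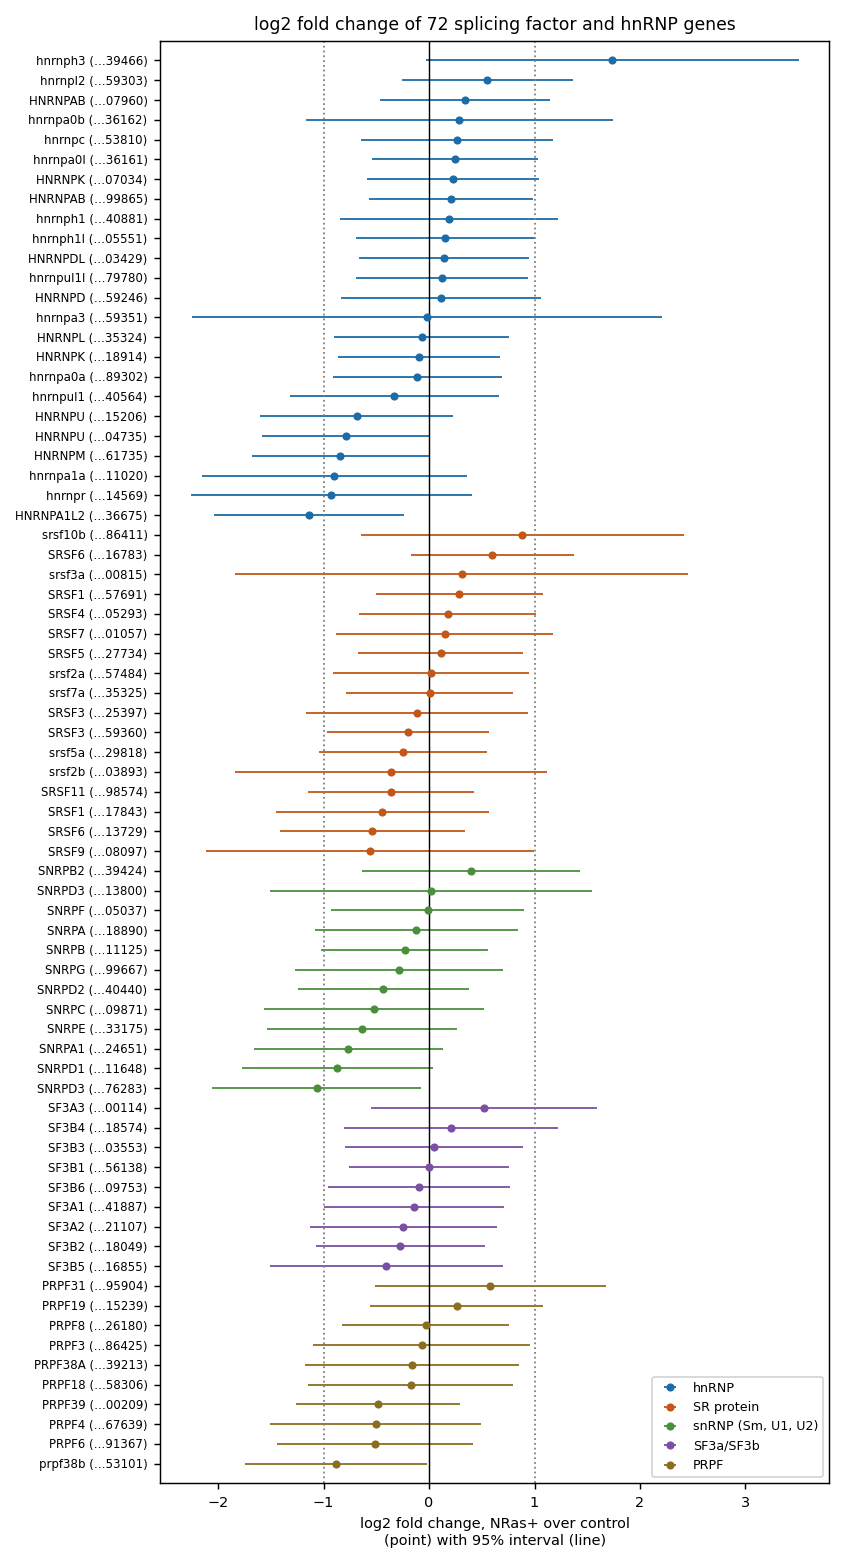
Log2 fold change of NRas+ over control for 72 of the 73 genes (horizontal axis, points) with its 95% interval from edgeR's quasi-likelihood fit (lines), grouped and coloured by role, with the last digits of each Ensembl identifier. Dotted lines mark log2 fold changes of -1 and 1, and the intervals of 16 of the genes drawn lie wholly between them.

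As a share of all counts, the 73 genes together took 0.225% and 0.212% in NRas+ libraries, against 0.249% and 0.338% in controls. Both NRas+ libraries lay below both controls, which gave a two-sided exact permutation p of 0.33, the smallest that 2 against 2 libraries allow. Once the counts of skeletal muscle markers were left out of the total, the share was 0.394% and 0.373% in NRas+ libraries and 0.358% and 0.431% in controls, and the groups overlapped. Counts relative to the scaled library total (CPM), with the total scaled by the trimmed mean of M-values (TMM), summed to 2616 and 2252 in NRas+ libraries and 2842 and 2407 in controls, which overlapped as well. The ratio of the NRas+ to the control mean was thus 0.744 on all counts, 0.973 without the muscle markers and 0.927 on the TMM scale.

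**Figure D2:**
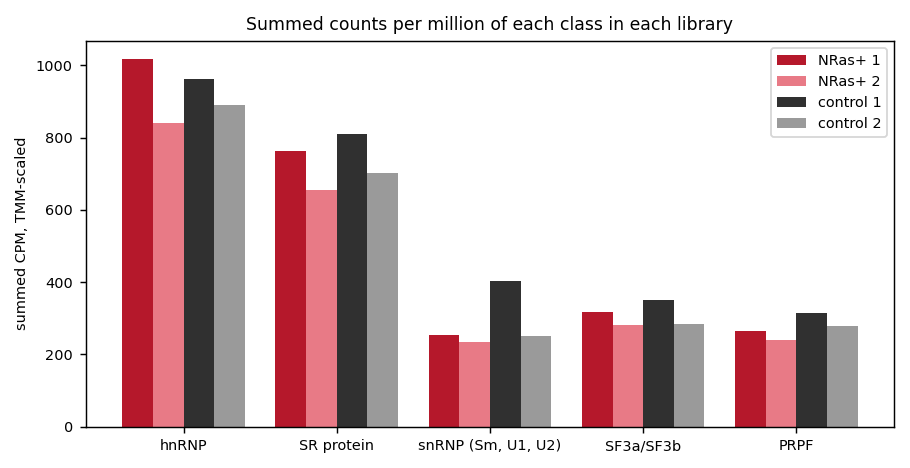
Summed TMM-scaled CPM of the genes of each role class (bars, 1 per library, vertical axis from 0), NRas+ libraries in red and control libraries in black and grey. The hnRNP bars lie between 841 and 1017 in all 4 libraries, and control 1 stands above the other 3 in the snRNP class.

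Among the hnRNP genes, 13 had a positive and 11 a negative log2 fold change, with a median of 0.12. HNRNPA1L2 (ENSDARG00000036675), named for its likeness to hnRNP A1, a repressor of splice site choice, had 12.4 and 9.86 CPM in NRas+ libraries, against 26.8 and 22.3 CPM in controls. Both NRas+ libraries lay below both controls, with a log2 fold change of -1.14 (SE 0.43) and an adjusted p of 0.306 by edgeR's quasi-likelihood test. Its relative hnrnpa1a (ENSDARG00000011020) had 3.95 and 4.18 CPM in NRas+ libraries and 7.78 and 7.41 CPM in controls, again with no overlap. The difference of hnrnpa1a did not pass the test either (log2 fold change -0.90, SE 0.60, adjusted p = 0.616 by edgeR), and this gene was added to the account after its values were seen.

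HNRNPM (ENSDARG00000061735), whose protein binds GU-rich intronic RNA, had 54.8 and 33.6 CPM in NRas+ libraries and 99.8 and 59.1 CPM in controls. The groups did not overlap, although control 2 was only slightly above NRas+ 1, and the log2 fold change was -0.84 (SE 0.40, adjusted p = 0.441 by edgeR). HNRNPU encodes a large scaffold protein of the nuclear matrix that binds both RNA and chromatin. Its gene ENSDARG00000004735 had 39.0 and 44.0 CPM in NRas+ libraries and 86.7 and 56.9 CPM in controls, a log2 fold change of -0.79 (SE 0.38, adjusted p = 0.448 by edgeR). The second gene of that name, ENSDARG00000015206, had 10.6 and 18.1 CPM in NRas+ libraries and 19.2 and 26.7 CPM in controls. Both HNRNPU genes were thus lower in each NRas+ library than in each control, and the second one also did not pass the test (adjusted p = 0.598 by edgeR).

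The positive end of the hnRNP class was held by a gene of low counts. The gene hnrnph3 (ENSDARG00000039466), of the hnRNP H and F family that binds G-rich RNA, had 143 and 189 counts in NRas+ libraries and 17 and 96 in controls, or 3.92 and 4.97 CPM against 0.633 and 1.76 CPM. This was the highest log2 fold change of the 73 genes, 1.74, with a wide interval from -0.03 to 3.51 and an adjusted p of 0.453 by edgeR. DESeq2 gave hnrnph3 no adjusted p, nor hnrnpa3 and srsf3a, which also had few counts. The gene hnrnpl2 (ENSDARG00000059303), of the family of hnRNP L, which binds CA repeats, had 44.6 and 33.5 CPM in NRas+ libraries and 23.3 and 29.6 CPM in controls. Its groups did not overlap, with a log2 fold change of 0.55 (SE 0.39, adjusted p = 0.638 by edgeR).

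The hnRNP genes with the highest CPM overlapped between the groups. HNRNPAB, an hnRNP of the A/B type, is the symbol of 2 of them. ENSDARG00000007960 had 197 and 139.7 CPM in NRas+ libraries and 113 and 152 CPM in controls, and ENSDARG00000099865 had 134 and 95.7 CPM in NRas+ libraries and 97.7 and 102 CPM in controls. The gene hnrnpa0l (ENSDARG00000036161), close to the mRNA-binding protein hnRNP A0, had 181 and 139 CPM in NRas+ libraries and 145 and 125 CPM in controls. In all 3 genes NRas+ 1 was the highest library, and their log2 fold changes were 0.34, 0.21 and 0.25, each with an adjusted p of 0.798 or more by edgeR. Among those 3, only the interval of ENSDARG00000099865, from -0.57 to 0.98, lay wholly within 2-fold.

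Some other classical hnRNP genes also lay close together in the 4 libraries. HNRNPK, a poly(C)-binding hnRNP, had 59.1 and 50.7 CPM in NRas+ libraries and 62.7 and 54.7 CPM in controls for ENSDARG00000018914, with an interval of the log2 fold change from -0.86 to 0.67. The gene hnrnpa0a (ENSDARG00000089302) had 29.2 and 27.3 CPM in NRas+ libraries and 28.8 and 32.0 CPM in controls. HNRNPL (ENSDARG00000035324) had 22.8 and 29.7 CPM in NRas+ libraries and 31.0 and 24.4 CPM in controls. These 3 genes have intervals wholly within 2-fold, as have 6 of the 24 hnRNP genes in all, and were added after their values were seen. The other HNRNPK gene, ENSDARG00000007034, had 34.0 and 30.1 CPM in NRas+ libraries and 22.5 and 31.8 CPM in controls. Its interval, from -0.59 to 1.05, reached past 2-fold.

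**Figure D3:**
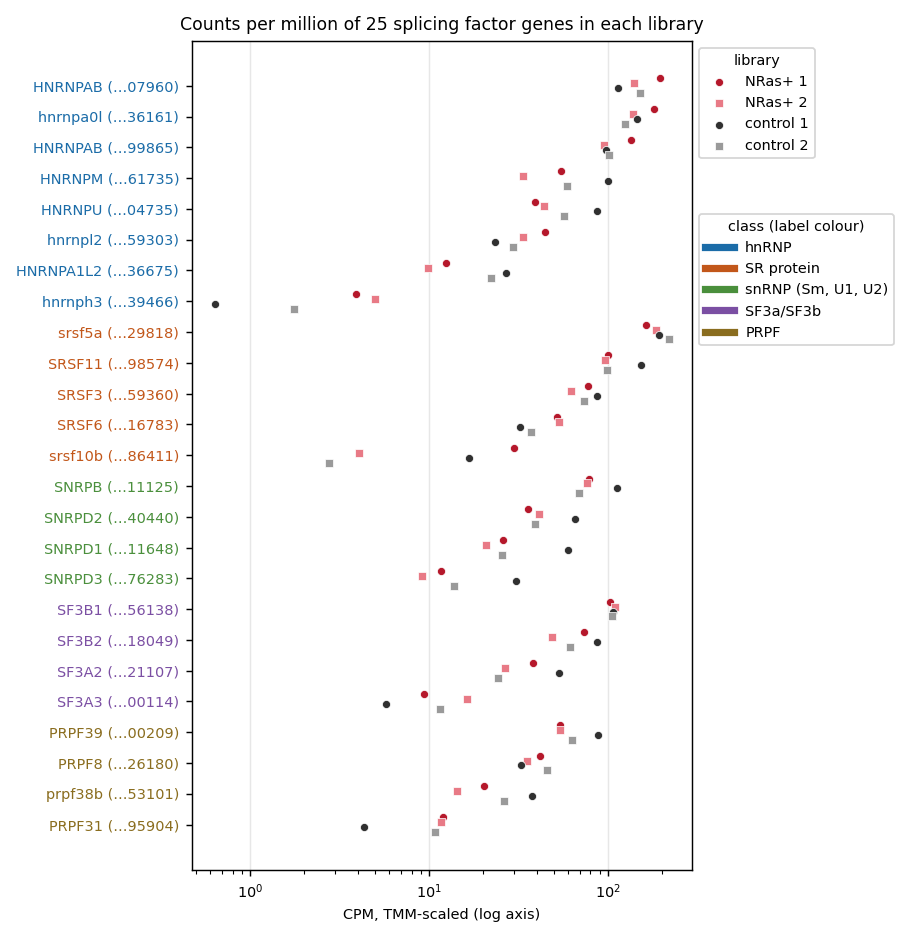
TMM-scaled CPM on a log axis for 25 genes named by rule, 1 symbol per library (red for NRas+, black and grey for control, circles for libraries numbered 1, squares for those numbered 2, drawn one above the other in each row), with the gene names coloured by role class. The 4 points of SF3B1 lie between 103 and 109.7 CPM, whereas those of srsf10b separate by replicate number and not by group.

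Of the 17 SR protein genes, 9 had a positive and 8 a negative log2 fold change, and the median was 0.00. None passed an unadjusted p under 0.05 by edgeR or lay past a log2 fold change of 1. The gene of SRSF6, an SR protein that binds exonic enhancers, with the identifier ENSDARG00000016783 had 52.1 and 53.2 CPM in NRas+ libraries and 32.1 and 37.2 CPM in controls. The replicates were close to each other and the groups did not overlap, with a log2 fold change of 0.60 (SE 0.37, interval -0.18 to 1.38) and an adjusted p of 0.584 by edgeR. In the order of their levels over the 4 libraries this was the only SR protein gene with both NRas+ libraries above both controls.

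Some SR protein genes varied more between replicates than between groups. The gene srsf10b (ENSDARG00000086411), a paralog of SRSF10, which acts as a splicing repressor once dephosphorylated, had 29.8 and 4.05 CPM in NRas+ libraries and 16.8 and 2.76 CPM in controls. Its highest library exceeded its lowest 10.8-fold, the largest ratio of the 73 genes, with both libraries numbered 1 high and both numbered 2 low, and its log2 fold change was 0.89 with an SE of 0.73 (adjusted p = 0.697 by edgeR). Without NRas+ 1 the log2 fold change of srsf10b was -1.22. The same split by replicate number was found for srsf2a (ENSDARG00000057484), a gene of the speckle protein SRSF2, with 64.2 and 33.2 CPM in NRas+ libraries and 68.8 and 28.1 CPM in controls. SRSF9 (ENSDARG00000008097), a short relative of SRSF1, had 6.99 and 1.31 CPM in NRas+ libraries and 9.27 and 3.59 CPM in controls, again with replicate 1 above replicate 2 in each group. Outside the SR proteins, hnrnpr (ENSDARG00000014569), of an RNA-binding hnRNP close to SYNCRIP, was alike, with 15.5 and 4.73 CPM in NRas+ libraries and 33.7 and 6.15 CPM in controls. These last 3 genes were added after their values were seen, and nothing in the labels ties libraries of the same number together.

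The SR protein genes with the highest CPM were srsf5a, SRSF11 and SRSF3. The gene srsf5a (ENSDARG00000029818), a paralog of the enhancer-binding SRSF5, had 163 and 186 CPM in NRas+ libraries and 194 and 219.9 CPM in controls, with no overlap and a log2 fold change of -0.25 (SE 0.38, adjusted p = 0.862 by edgeR). SRSF11 (ENSDARG00000098574), an SR-related protein, had 99.7 and 96.5 CPM in NRas+ libraries and 153 and 99.6 CPM in controls. Only control 1 stood apart there. SRSF3 (ENSDARG00000059360), of the smallest SR protein, had 77.6 and 62.4 CPM in NRas+ libraries and 87.1 and 74.1 CPM in controls, with an interval of the log2 fold change from -0.97 to 0.57.

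The snRNP class had most of its genes on the negative side. Of its 12 genes, 10 had a negative log2 fold change, as did 10462 of all 20099 genes tested. Its median was -0.36, the lowest of the 5 classes. The class summed to 254 and 236 CPM in NRas+ libraries and to 403 and 252 CPM in controls (ratio 0.747, exact permutation p = 0.667, two-sided). Control 1 was the highest of the 4 libraries for 9 of the 12 genes, and without it the class median was -0.02, against -0.63 without control 2. The number of snRNP genes past an unadjusted p under 0.05 was 1 of 12, SNRPD3.

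The 7 proteins of the Sm ring are encoded by 8 genes here, all of which are given to complete the ring. SNRPD3 forms the ring next to SNRPB, and its gene ENSDARG00000076283 had 11.7 and 9.12 CPM in NRas+ libraries and 30.6 and 13.8 CPM in controls. The groups did not overlap, although the gap rested mainly on control 1, with a log2 fold change of -1.07 (SE 0.48) and an adjusted p of 0.402 by edgeR. The other gene of that name, ENSDARG00000013800, had 4.80 and 2.52 CPM in NRas+ libraries and 3.498 and 3.68 CPM in controls, with a log2 fold change of 0.02. SNRPD1 (ENSDARG00000011648), which pairs with SNRPD2 in the ring, had 25.8 and 20.7 CPM in NRas+ libraries and 60.3 and 25.6 CPM in controls, a log2 fold change of -0.87 (SE 0.43, adjusted p = 0.466 by edgeR). Control 2 lay within the range of the NRas+ libraries.

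SNRPD2 (ENSDARG00000040440) had 35.7 and 41.2 CPM in NRas+ libraries and 65.3 and 39.1 CPM in controls. SNRPB (ENSDARG00000011125) had 78.7 and 76.2 CPM in NRas+ libraries and 113 and 69.2 CPM in controls. In both Sm genes control 1 alone was high, control 2 being below 1 or both NRas+ libraries. SNRPE (ENSDARG00000033175) had 17.96 and 12.2 CPM in NRas+ libraries and 27.8 and 19.4 CPM in controls with no overlap, a log2 fold change of -0.63 (adjusted p = 0.621 by edgeR). SNRPG (ENSDARG00000099667) had 11.3 and 9.80 CPM in NRas+ libraries and 15.3 and 10.8 CPM in controls. SNRPF (ENSDARG00000105037) differed from these ring partners in that all 4 libraries were close, with 13.9 and 14.5 CPM in NRas+ libraries and 14.7 and 14.0 CPM in controls. Its highest library exceeded its lowest only 1.06-fold, the smallest ratio of the 73 genes, and its interval ran from -0.93 to 0.90. Over the ring the sum was 199.9 and 186 CPM in NRas+ libraries and 330.4 and 195 CPM in controls, control 1 being the highest library for 7 of the 8 genes.

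The remaining snRNP genes encode proteins of the U1 and U2 particles. SNRPA and SNRPC belong to the U1 snRNP, which recognises the 5′ splice site, and had log2 fold changes of -0.12 and -0.52. SNRPA1 (ENSDARG00000024651), a U2 snRNP protein, had 15.1 and 14.4 CPM in NRas+ libraries and 31.9 and 18.7 CPM in controls, with no overlap (log2 fold change -0.76, adjusted p = 0.531 by edgeR). SNRPB2, its binding partner in the U2 snRNP, had a log2 fold change of 0.40 with the groups overlapping. None of these 4 genes passed an unadjusted p under 0.05.

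The genes of SF3a and SF3b spanned a narrow range of differences. Of the 9 genes, 4 had a positive and 5 a negative log2 fold change, all between -0.41 and 0.52, with a median of -0.09, and 4 had an interval wholly within 2-fold. SF3B1 (ENSDARG00000056138), the largest SF3b subunit, which holds the branch point helix, had 103 and 109.7 CPM in NRas+ libraries and 107 and 105 CPM in controls. Its log2 fold change was 0.00 with an interval from -0.76 to 0.76, and its highest library exceeded its lowest 1.07-fold. SF3B2 (ENSDARG00000018049), a further SF3b subunit, had 73.5 and 48.6 CPM in NRas+ libraries and 87.01 and 61.1 CPM in controls, the groups overlapping.

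The 3 SF3a genes, which enter the U2 snRNP with SF3b, had log2 fold changes of both signs. SF3A2 (ENSDARG00000021107) had 38.1 and 26.7 CPM in NRas+ libraries and 53.3 and 24.3 CPM in controls, with a log2 fold change of -0.25. SF3A3 (ENSDARG00000100114) had 9.35 and 16.3 CPM in NRas+ libraries and 5.77 and 11.6 CPM in controls, with a log2 fold change of 0.52 (SE 0.51, adjusted p = 0.751 by edgeR). Both overlapped between the groups, as did SF3A1, with a log2 fold change of -0.14. SF3B5, the smallest SF3b subunit, was the only gene of the 2 complexes with no overlap, both NRas+ libraries being below both controls (7.16 and 7.02 CPM in NRas+ libraries, 11.6 and 7.54 CPM in controls, adjusted p = 0.831 by edgeR).

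Of the 11 PRPF genes, 9 had a negative log2 fold change, as did 10462 of all 20099 genes tested, and the class median was -0.16. The class summed to 266 and 239.7 CPM in NRas+ libraries and 316 and 278 CPM in controls. These sums did not overlap (exact permutation p = 0.33, two-sided, the smallest possible here). The gene prpf38b (ENSDARG00000053101), related to the spliceosome activation factor PRPF38A, had 20.3 and 14.4 CPM in NRas+ libraries and 37.9 and 26.4 CPM in controls. It was lower in both NRas+ libraries, with a log2 fold change of -0.88 (SE 0.41) and an adjusted p of 0.433 by edgeR. PRPF38A itself had a log2 fold change of -0.16, and its groups overlapped. PRPF39 (ENSDARG00000100209), whose yeast counterpart belongs to the U1 snRNP, had 54.2 and 53.7 CPM in NRas+ libraries and 88.1 and 63.2 CPM in controls, with no overlap and a log2 fold change of -0.48 (SE 0.37, adjusted p = 0.672 by edgeR).

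PRPF8 (ENSDARG00000026180), the U5 snRNP protein that cradles the active site of the spliceosome, had 41.8 and 35.1 CPM in NRas+ libraries and 32.9 and 45.4 CPM in controls. Its log2 fold change was -0.03 with an interval from -0.83 to 0.76, and the groups overlapped. PRPF31 (ENSDARG00000095904), which joins U4/U6 to U5 in the tri-snRNP, had 12.04 and 11.6 CPM in NRas+ libraries and 4.32 and 10.8 CPM in controls. The groups did not overlap, although control 2 was close to both NRas+ libraries, and the log2 fold change was 0.58 (SE 0.52, adjusted p = 0.724 by edgeR). PRPF19, a ubiquitin ligase of the active spliceosome, was the other gene of the class with both NRas+ libraries above both controls, at 25.3 and 30.6 CPM in NRas+ libraries and 23.1 and 23.5 CPM in controls.

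Because the zebrafish carries duplicates of many of these genes, the balance within 13 pairs of paralogs was compared as the share of the pair's counts that came from the first gene, which does not depend on library scaling. These pairs were chosen after the values were seen, and reads that fit both of 2 near-identical copies may have been lost or assigned unevenly. The shares did not overlap between the groups in 7 of the 13 pairs, each at an exact permutation p of 0.33, which is the smallest possible. By level, both NRas+ libraries lay above both controls for 20.5% of all genes tested and below them for 21.8%. Lack of overlap is thus common with 2 libraries per group, and no conclusion is drawn from the count of pairs. The widest divergence was that of SRSF6, where ENSDARG00000013729 gave 36.1% and 25.5% of the pair's counts in NRas+ libraries and 57.8% and 40.9% in controls. The log2 fold change of that gene was -0.54 and that of ENSDARG00000016783 was 0.60, a difference of -1.14. In SNRPD3, ENSDARG00000013800 gave 29.0% and 21.7% in NRas+ libraries and 10.3% and 21.0% in controls, so that control 2 was close to the NRas+ libraries. The other 5 of these pairs were those of SRSF1, srsf5a, srsf2a, hnrnpa0a and hnrnpul1. For srsf5a and SRSF5, the gene srsf5a gave 78.9% and 79.5% in NRas+ libraries and 84.5% and 81.8% in controls. In SRSF1, ENSDARG00000017843 gave 11.6% and 21.7% in NRas+ libraries and 23.6% and 24.5% in controls, so that NRas+ 1 stood apart. In the other 6 pairs the shares overlapped. One of these was HNRNPAB, where ENSDARG00000007960 gave 59.5% and 59.3% in NRas+ libraries and 53.7% and 59.9% in controls.

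**Figure D4:**
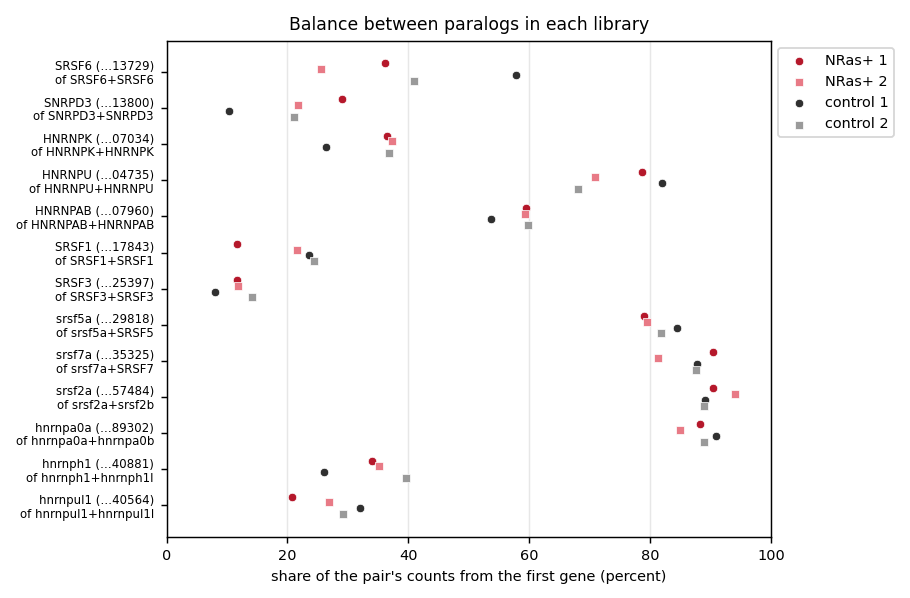
Share of a paralog pair's counts that came from the first gene named (horizontal axis, percent), 1 symbol per library (red for NRas+, black and grey for control), for 13 pairs. In SRSF6 the NRas+ libraries lie at 36.1% and 25.5% and the controls at 57.8% and 40.9%.

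Other genes of the splicing machinery were followed through 7 lists, which hold none of the 73 genes. By edgeR's quasi-likelihood test 0 genes of any list passed, beside 0.169% of all genes tested in either direction. At an unadjusted p under 0.05, 2 of the 182 genes tested in these lists, each counted once, were higher and 20 lower, beside 5.17% and 6.13% of all genes tested. The list of exon junction complex and SR-related genes had the lowest median, -0.52. Of its 19 genes, 17 had a negative log2 fold change, as did 10462 of all 20099 genes tested. At an unadjusted p under 0.05, 6 of the 19 were lower, where 6.13% of all genes tested were. Together they took 0.111% and 0.0971% of all counts in NRas+ libraries and 0.339% and 0.229% in controls. Both NRas+ libraries were thus below both controls (exact permutation p = 0.33, two-sided, the smallest possible), and without control 1 the median was -0.28. The ratio of the NRas+ to the control mean share was 0.367 for this list and from 0.512 to 0.791 for the other lists. In each of those but the splicing regulators, both NRas+ libraries were also below both controls in share. These are shares of all counts, skeletal muscle markers included, and were not recomputed without those markers. In every library acin1a had the most counts of the exon junction list, 15472 and 11372 in NRas+ libraries and 58641 and 29589 in controls. The share of that list thus leans on this gene, and it was not recomputed without acin1a. For the 73 genes the ratio was 0.744 on all counts and 0.973 without the muscle markers.

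The 6 genes were acin1a, srrm2, U2SURP, sona, srrm1 and PNN. The gene acin1a (ENSDARG00000054290), of Acinus, an RNA-binding partner of the exon junction complex, had 424 and 299 CPM in NRas+ libraries and 2182 and 542 CPM in controls. Its log2 fold change of -1.91 (SE 0.59, adjusted p = 0.198 by edgeR, 0.0216 by DESeq2) was -0.57 without control 1. The gene srrm2 (ENSDARG00000037965), a scaffold of nuclear speckles, had 73.8 and 65.4 CPM in NRas+ libraries and 319 and 134 CPM in controls, a log2 fold change of -1.70 (SE 0.43, adjusted p = 0.104 by edgeR, 0.0145 by DESeq2), or -0.93 without control 1. The gene sona (ENSDARG00000055389), of the speckle protein SON, had 41.5 and 44.1 CPM in NRas+ libraries and 105 and 83.5 CPM in controls, with replicates closer together. Its log2 fold change was -1.13 (SE 0.37, adjusted p = 0.226 by edgeR) and -0.95 without control 1.

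Among 69 further spliceosome genes tested, 21 had a positive and 48 a negative log2 fold change, with a median of -0.28. By sign, 9637 of all genes tested were positive and 10462 negative. At an unadjusted p under 0.05 by edgeR, 9 of the 69 were lower, where 6.13% of all genes tested were. DHX16 (ENSDARG00000013150), a helicase of spliceosome activation, had 34.4 and 22.4 CPM in NRas+ libraries and 117 and 56.5 CPM in controls (log2 fold change -1.60, SE 0.42, adjusted p = 0.117 by edgeR and 0.0336 by DESeq2). SNRNP70 (ENSDARG00000077126), the U1 protein that the rule leaves out by its symbol, had 27.1 and 24.5 CPM in NRas+ libraries and 63.6 and 36.9 CPM in controls. U2AF2 (ENSDARG00000011740), which reads the polypyrimidine tract, had 48.8 and 45.4 CPM in NRas+ libraries and 97.0 and 78.1 CPM in controls. Those 2 genes had adjusted p of 0.363 and 0.355 by edgeR. The other gene named U2AF2, ENSDARG00000012505, had 29.9 and 25.3 CPM in NRas+ libraries and 26.5 and 26.8 CPM in controls. Its log2 fold change was 0.05, and its groups overlapped. Without control 1 the list's median was -0.10 and its count lower at an unadjusted p under 0.05 was 2. The 12 genes of the minor, U12-type spliceosome had a median of -0.42 with 8 negative, the 13 Lsm genes tested a median of -0.09, the 12 genes of snRNP assembly -0.12 and the 13 SR protein kinase genes -0.21.

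Splicing regulators with tissue-restricted or general roles numbered 47 genes tested, of which 13 had a positive and 34 a negative log2 fold change, with a median of -0.34. All genes tested divided into 9637 positive and 10462 negative. The gene rbfox1l (ENSDARG00000021184), an Rbfox family regulator of muscle splicing in zebrafish, had 115 and 147 CPM in NRas+ libraries and 35.6 and 37.8 CPM in controls. The replicates were close and the groups far apart, with a log2 fold change of 1.84 (SE 0.38) that narrowly missed the threshold by edgeR (adjusted p = 0.0518) and passed it by DESeq2 (adjusted p = 0.000262). Its Rbfox relatives had negative log2 fold changes, -0.34 for RBFOX1 and -0.60 for rbfox2. Those of RBFOX3 were -0.07 for ENSDARG00000010083 and -0.68 for ENSDARG00000074310. None of these relatives passed by edgeR, with adjusted p of 0.587 or more. RBM24 (ENSDARG00000031809), another regulator of splicing in muscle, had 5.38 and 3.92 CPM in NRas+ libraries and 0.298 and 0.897 CPM in controls (log2 fold change 2.76, SE 0.95, adjusted p = 0.256 by edgeR). The other gene of that name, ENSDARG00000102995, had a log2 fold change of only 0.31. Genes of the muscleblind family and CELF1, which also regulate splicing in muscle, had log2 fold changes of -0.59 for MBNL1, -0.44 for MBNL2, -0.53 for MBNL3 and 0.00 for CELF1. The 2 genes of the list that were lower at an unadjusted p under 0.05 were PTBP2 (ENSDARG00000101947), of a polypyrimidine tract-binding repressor, with a log2 fold change of -1.28, and taf15, of an RNA-binding protein, with -1.23. Their adjusted p were 0.438 and 0.403 by edgeR. That PTBP2 gene had 4.83 and 4.70 CPM in NRas+ libraries and 18.3 and 5.71 CPM in controls. Control 2 was thus close to the NRas+ libraries. The other PTBP2 gene, ENSDARG00000015901, had a log2 fold change of 0.48, and its groups overlapped. Skeletal muscle markers were higher in share in the same libraries, at 42.8% and 43.2% in NRas+ libraries and 30.3% and 21.5% in controls, with 44 of the 50 tested having a positive log2 fold change, and their part in these values was not tested.

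**Figure D5:**
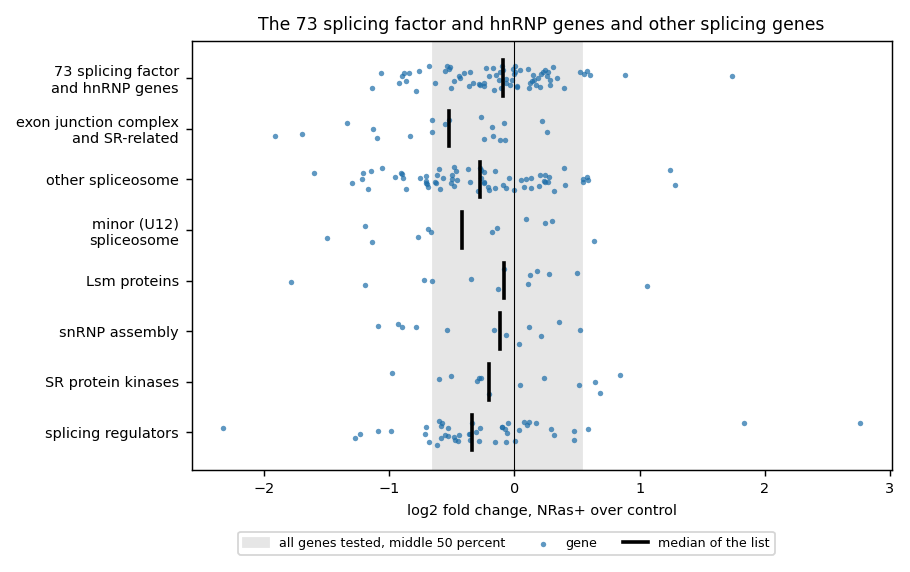
Log2 fold change of NRas+ over control (horizontal axis) for the 73 genes and for 7 other lists of splicing genes, 1 point per gene with vertical scatter only to separate them, medians as black bars and the middle 50 percent of all genes tested in grey. The median is -0.09 for the 73 genes and -0.52 for the exon junction complex and SR-related list, and rbfox1l lies at 1.84 and RBM24 at 2.76.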

How the data were processed

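Reads of 4 nuclear RNA libraries, 2 NRas+ and 2 control, amplified with SMART-seq v4, were mapped by the authors to danRer10 with STAR 2.4.2a and then counted with featureCounts on Ensembl genes. The deposited table holds raw counts, with no normalization. The study's text names standard counting parameters, which ignore strand, while the labels name a reverse strand, so counts of overlapping, antisense and near-identical genes are uncertain. The Ensembl release was not given in the sources used here. Symbols were looked up by Ensembl identifier in a name table and found for 26121 of the 31952 genes, and its capital and lower case symbols are kept as given.

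Counts were analysed in R 4.3.3 with edgeR 4.0.16, using filterByExpr, TMM scaling and the quasi-likelihood test without covariates. Benjamini-Hochberg adjustment at 0.05 ran over all 20099 genes tested. CPM is the count divided by library size and TMM factor, the factors being 0.861 and 0.941 in NRas+ libraries and 0.878 and 1.41 in controls. Intervals of the log2 fold change are at 95%. No gene lengths were used, so rankings of genes by CPM are not corrected for length and are not rankings of transcript level. The tests were first tested on simulated data. Alternatives were a minimum of 10 counts in every library, no filter, TMM factors computed without muscle markers, RLE size factors, DESeq2 1.42.0, the replicate number as a block and leaving out each library. The legacy quasi-likelihood fit, and the alternatives run for role classes, the other splicing lists and paralogs, were added after the data were seen.

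The 73 genes and all lists were chosen with earlier results of these data known. The genes named by rule were the 6 with the smallest p in each direction, the 3 with the highest mean CPM in each of the 5 role classes and those past a log2 fold change of 1 with no overlap between groups. Pairs of paralogs named a and b whose log2 fold changes differed by 1 or more were also to be named, and there were 0. One gene that this rule names is not reported here, although it is counted among the 73. Lists of macrophage, epidermis, neuron, photoreceptor, erythrocyte, melanocyte and proliferating cell markers were also counted, with medians of 0.04, 0.90, -0.17, 0.61, 0.06, -0.45 and -0.12. Of the 37 epidermis genes tested, 31 had a positive and 6 a negative log2 fold change. By edgeR 5 of them were called higher, where 0.129% of all genes tested were. Of the 25 fibroblast and cartilage genes tested, 24 had a negative and 1 a positive log2 fold change, with a median of -1.04. One gene among them, or 1 of 25, was called lower by edgeR, where 0.0398% of all genes tested were.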

Additional observations from a re-analysis of the deposited data

How the results depend on the processing

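With 2 libraries per group, none of the 73 genes passed the adjusted threshold under any of 11 alternatives, DESeq2 and each left-out library included, the smallest adjusted p of a member ranging from 0.0942 without control 2 to 1.00 without NRas+ 1. Over all genes tested the calls were 26 higher and 8 lower by edgeR, 205 and 178 by DESeq2, 88 and 64 with at least 10 counts in every library, 38 and 9 with TMM without the muscle list, 27 and 7 with RLE, 19 and 2 without a filter, 10 and 0 with the legacy fit and 7 and 0 with the replicate block. They were 88 and 262 without control 2, 6 and 0 without control 1, 29 and 0 without NRas+ 1 and 14 and 0 without NRas+ 2. Differences between replicates 1 and 2 correlated by 0.14 between the groups over all genes tested and by 0.62 over the 73 genes, which are not independent, and the labels tie no libraries together, so the block was kept as an alternative. At an unadjusted p under 0.05, 1 of the 73 genes was higher with DESeq2, RLE and TMM without the muscle list. The same count was found with the replicate block, no filter and a minimum of 10 counts in every library. The count lower was 1 with DESeq2, and 2 with RLE, with TMM without the muscle list and without a filter. It was 5 with the replicate block. The median log2 fold change of -0.09 ranged from -0.22 to 0.02 when a library was left out, where the median of all genes tested was 0.15 without control 2 and -0.18 without NRas+ 2. The ratio of shares, 0.744, was 0.973 without the muscle list, 0.927 for CPM scaled by TMM, 0.944 for CPM scaled by RLE, and 0.647 to 0.876 when a library was left out.

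Of 25 genes named by rule, 23 kept their sign under all alternatives with 4 libraries and 18 under each left-out library. The exceptions with 4 libraries lay at zero. PRPF8 was at 0.00419 by DESeq2 and 0.0071 with TMM without the muscle list, and SF3B1 at -0.00189 without a filter. When a library was left out, the sign also turned for PRPF8 (-0.23 to 0.25), SF3B1 (-0.0130 to 0.0568), SF3A2 (-0.69 to 0.43), SF3B2 (-0.60 to 0.0276), SNRPB (-0.52 to 0.18), srsf10b (-1.22 to 2.62) and HNRNPAB ENSDARG00000099865 (-0.0523 to 0.46). The snRNP class median was -0.02 without control 1 and -0.63 without control 2, the SR protein median -0.25 and the SF3 median -0.36 without NRas+ 1, and the PRPF median 0.02 without NRas+ 2. Outside the 73 genes, rbfox1l passed with DESeq2 (adjusted p = 0.000262), and by edgeR with TMM without the muscle list (0.0447) and at least 10 counts in every library (0.0191). The gene srrm2 passed with DESeq2 and, by edgeR, with at least 10 counts in every library (0.0420). By DESeq2 acin1a and DHX16 passed as well (adjusted p = 0.0216 and 0.0336). Calls of these genes with a library left out rest on 1 library in a group and are not given. The cause was not tested for any of these shifts. Counting error weighs most on low genes such as hnrnph3, the lowest count of any of the 73 genes in a library being 17.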
